A study of Homo sapiens with 60 samples.

Results

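Genes encoding 10 heat shock chaperones and partners were followed through a treatment series in HepG2, an established line from a human hepatocellular carcinoma. They were picked by symbol: HSP90AA1, HSP90AB1, HSPA8, HSPA1A, HSPA1B, HSPH1, DNAJB1, STIP1, FKBP4 and HSPD1. The count table held 60675 genes, of which 16517 had enough counts for a test, and all 10 chaperone genes were among them. RNA was taken after 24 h of treatment, and each of 20 groups had 3 libraries, 60 in all. The treated groups were wortmannin at 10 µM, an inhibitor of phosphoinositide 3-kinases given as the positive control, and water extracts of 6 medicinal herbs at a low, a medium and a high dose. Polygalae Radix was given at 18, 90 and 450 µg/mL. Aucklandiae Radix, Schisandrae Fructus, Liriopis seu Ophiopogonis Tuber, Zizyphi Semen and Longan Arillus were given at 20, 100 and 500 µg/mL. The comparison group received a DMSO vehicle, which the labels put at 0.1% and the series' design text at 2%, so its level is uncertain. An established line in culture stands for hepatocytes only in part, and in bulk RNA a shift in the mix of cell states and less RNA per cell cannot be told apart.

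Chaperones hold other proteins while they fold and keep damaged ones from clumping. Under protein stress, heat shock factor 1 (HSF1) is released from chaperones, binds heat shock elements in promoters and raises transcription of HSP70, HSP40 and HSP90 genes. HSP70 proteins take up clients with the help of J-domain partners and nucleotide exchange factors, and can pass them to HSP90 through adaptor proteins. In the mitochondrial matrix, HSP60 rings with HSP10 lids fold imported proteins. HSP90 and the constitutive HSP70 are made in large amounts without stress, in liver as in most tissues.

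The heat shock elements in the windows upstream of these genes are shown first, because they are the promoter sequence through which HSF1 acts. The search found matching letters before some of the genes and not before others. RefSeq promoter entries (GRCh38.p14) were found for 9 of the 10 genes, FKBP4 being the gene without one. The 250 bases before each annotated start were searched on both strands for an element of 3 alternating units, GAANNTTCNNGAA or TTCNNGAANNTTC, and for its core of 2 units, GAANNTTC or TTCNNGAA, which the longer motif contains. Each line gives 30 bases, 5′ to 3′ on the strand of the gene, with the motif in capitals.

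HSP90AA1: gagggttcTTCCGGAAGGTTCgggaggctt
HSP90AB1, far site: ggagcaggTTCTGGAAGATTCatgggctcc
HSP90AB1, near site: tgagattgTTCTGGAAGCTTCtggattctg
HSPA8, far site: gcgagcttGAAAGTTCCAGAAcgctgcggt
HSPA8, near site: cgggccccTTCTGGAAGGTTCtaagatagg
HSPD1: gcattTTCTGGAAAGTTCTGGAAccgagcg
HSPA1A: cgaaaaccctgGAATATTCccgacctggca
HSPA1B: cgaaacccctgGAATATTCccgacctggca
DNAJB1, far site: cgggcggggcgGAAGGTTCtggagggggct
DNAJB1, near site: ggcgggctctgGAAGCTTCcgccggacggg

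The 3-unit element was present in 4 of the 9 genes, HSP90AA1, HSP90AB1, HSPA8 and HSPD1, against 0.557% of 27305 genes with an entry. The 2-unit core was present in 7 of the 9, against 14% of all genes, and HSPA1A, HSPA1B and DNAJB1 carried only the core. In HSPD1 both forms of the 3-unit motif overlap, which gives a run of 4 alternating units. The windows of HSPH1 and STIP1 did not hold these letters, and looser or more distant forms were not searched. Where a gene with a match had several annotated starts, the match lay before 1 of them. That was 1 of 2 for HSP90AA1 and HSPD1, and 1 of 3 for HSP90AB1 and DNAJB1. The sites lie at chr14:102087111-102087140 for HSP90AA1, chr6:44247770-44247799 and chr6:44247823-44247852 for HSP90AB1, chr11:123062345-123062374 and chr11:123062170-123062199 for HSPA8, and chr2:197500061-197500090 for HSPD1. Those of the cores are chr6:31815426-31815455 for HSPA1A, chr6:31827622-31827651 for HSPA1B, and chr19:14518456-14518485 and chr19:14518426-14518455 for DNAJB1. A match describes letters and does not show that a factor was bound.

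Library totals lay between 20.21 and 36.41 M counts. The 10 hepatocyte markers examined, such as ALB and APOB, were expressed in all libraries, with a summed level of 37537 to 54094 CPM (counts per M of the library total, scaled with TMM factors). The 10 leukocyte, endothelial and fibroblast markers summed to 38.2 to 67.5 CPM, most of it CD68, and PTPRC and CD3E were at 0 in every library. The sample codes fall into 5 sets of unstated meaning. Vehicle and wortmannin libraries each form a separate set, and Polygalae with Aucklandiae, Schisandrae with Liriopis, and Zizyphi with Longan make up the rest. Every comparison with the vehicle therefore crosses sets, and set and treatment cannot be told apart there, which is why each extract was also tested at its high against its low dose, within one set. All 19 comparisons with the vehicle share its 3 libraries. Liriopis low replicate 1 and vehicle replicate 1 stood apart, with slopes of gene deviations on GC content of -1.73 and -1.20, against 0.11 and 0.17 in the other vehicle libraries. Mitochondrially encoded mRNA took 10.5% to 11.3% of counts with wortmannin, 9.31% to 11.2% with high-dose Polygalae and 9.57% to 9.98% with high-dose Aucklandiae, against 13.01% to 16.1% with the vehicle. This was not particular to these groups. Low-dose Polygalae (7.06% to 11.2%) and low-dose Liriopis (10.0% to 11.8%) were also below the vehicle, while some groups overlapped it, such as medium-dose Aucklandiae with a library at 16.6%. The part of these shares in the results below was not tested. Without TMM scaling, log2 fold changes would lie higher in all 19 comparisons with the vehicle. The shift was 0.08 for wortmannin, 0.16 for high-dose Polygalae and 0.11 for high-dose Aucklandiae, and also 0.12 for low-dose Polygalae.

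The genes covered a wide range of abundance. Per kilobase of exon in vehicle cells, HSP90AB1 was highest at 1076 CPM per kb, followed by HSPD1 at 348, HSP90AA1 at 345 and HSPA8 at 276 CPM per kb. HSPA1B reached 81.6 and HSPA1A 54.0 CPM per kb, STIP1 48.1, DNAJB1 43.6, FKBP4 19.8 and HSPH1 16.6 CPM per kb. Levels were even between libraries of a group, with a median coefficient of variation of 1.90% for HSP90AB1 at one end and 7.47% for HSPA1B at the other. Across the 20 group means the spread was also narrow, from 1.16-fold between the highest and lowest group for DNAJB1 to 1.56-fold for HSPA1A. Wortmannin gave the lowest group mean of HSP90AA1, HSPA8, HSPH1, STIP1, FKBP4 and HSPD1. High-dose Polygalae gave the lowest of HSP90AB1, HSPA1A and HSPA1B, and high-dose Aucklandiae the lowest of DNAJB1. Summed over the 10 genes, the level was 7099 ± 95.3 CPM with wortmannin, 7163 ± 129.7 CPM with high-dose Polygalae and 7925 ± 240.2 CPM with high-dose Aucklandiae, against 8800 ± 210.2 CPM with the vehicle (SD, n = 3 each).

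**Figure D1:**
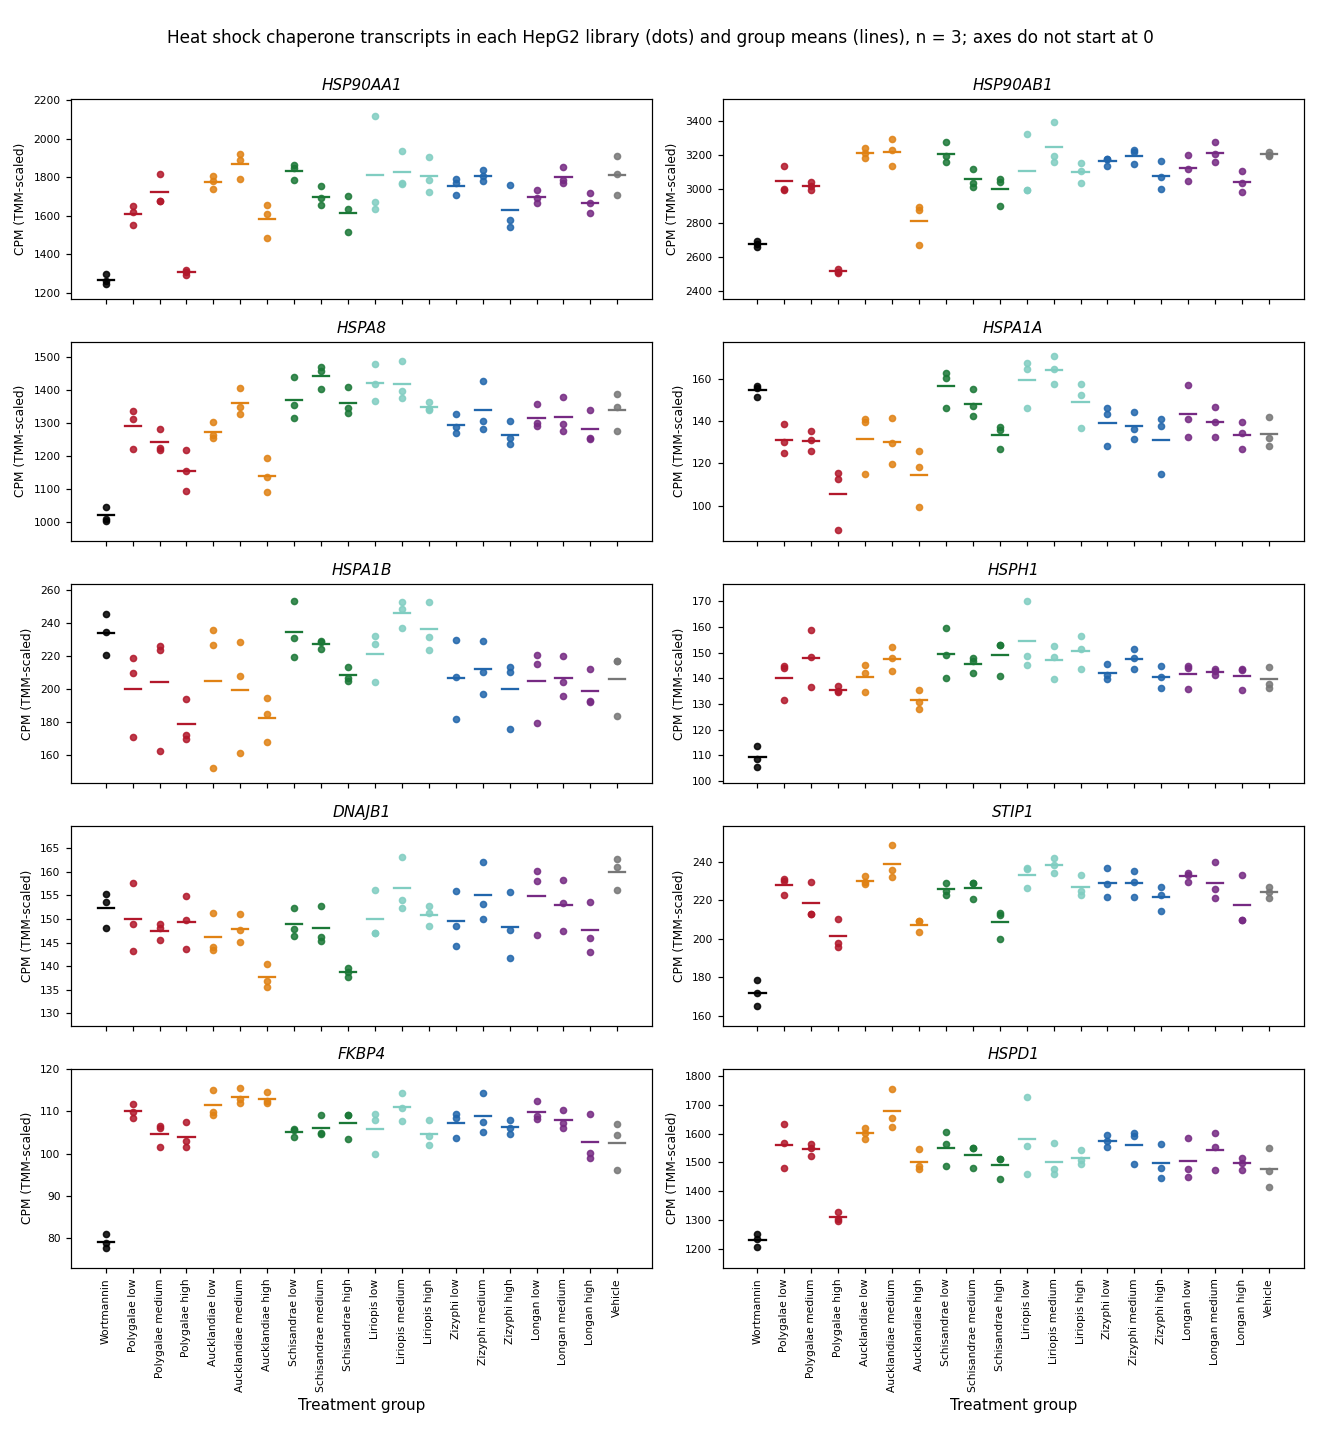
TMM-scaled CPM of the 10 chaperone transcripts (y axes, not starting at 0) in every library of the 20 treatment groups (x axis); dots are libraries and lines are group means of 3. Wortmannin and high-dose Polygalae sit lowest for HSP90AA1, at means of 1269 and 1305 CPM against 1810 CPM with the vehicle, while wortmannin lies above the vehicle for HSPA1A.

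Treatment with wortmannin lowered most of these transcripts, and 2 of the extracts did so at their high dose. With wortmannin, 7 of the 10 genes fell and none rose, while 32.6% of all tested genes passed the test (16.2% lower). High-dose Polygalae lowered 6, with 20.1% of all genes called (9.94% lower). High-dose Aucklandiae lowered 6 and raised FKBP4, with 26.1% called (12.5% lower and 13.6% higher). The median log2 fold change over the 10 genes was -0.31 with wortmannin, -0.19 with high-dose Polygalae and -0.18 with high-dose Aucklandiae, and that over all tested genes was 0.01, 0.01 and 0.00. The 7 wortmannin calls passed in each of the 13 alternative fits run for them, which include leaving out each library. Of the 6 calls with high-dose Polygalae 3 passed in all fits (HSP90AA1, HSP90AB1 and HSPA8), and of the 7 with high-dose Aucklandiae 3 did (HSP90AB1, HSPA8 and DNAJB1). Every one of these fits scaled the libraries. Without TMM scaling, the 3 Polygalae values were -0.31, -0.19 and -0.05 in that order. The 3 Aucklandiae values were then -0.08, -0.12 and -0.11.

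**Figure D2:**
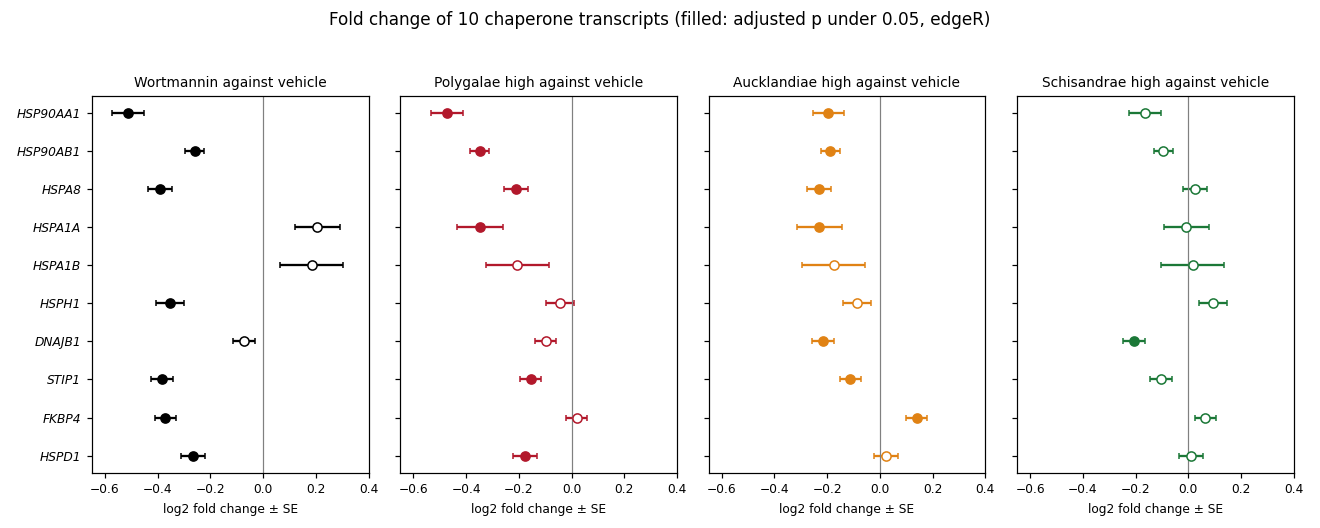
Log2 fold change against the vehicle (x axis, estimate ± SE from the edgeR fit) of the 10 genes (y axis) for wortmannin and for the high doses of Polygalae, Aucklandiae and Schisandrae, with 3 libraries in each group; filled points passed an adjusted p of 0.05. The HSP90 genes and HSPA8 lie below 0 and are filled in the first 3 panels, while HSPA1A lies at 0.21 with wortmannin and at -0.35 with high-dose Polygalae.

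The cytosolic HSP90 pair fell under all 3 of these treatments. HSP90AA1 (chr14:102080738-102139699, GRCh38) encodes the form of HSP90 that stress raises further, and HSP90AB1 (chr6:44246166-44253888) the constitutive form; both mature kinases, steroid receptors and other signalling proteins. HSP90AA1 stood at 1262, 1299 and 1245 CPM with wortmannin, at 1292, 1307 and 1316 CPM with high-dose Polygalae and at 1607, 1484 and 1653 CPM with high-dose Aucklandiae, against 1911, 1814 and 1706 CPM with the vehicle. None of the 9 treated libraries reached the lowest vehicle library. The log2 fold change was -0.51 ± 0.06 with wortmannin (SE; adjusted p = 2.82e-09), -0.47 ± 0.06 with high-dose Polygalae (6.54e-08) and -0.20 ± 0.06 with high-dose Aucklandiae (0.0122). The Aucklandiae call was lost without vehicle replicate 1 (log2 fold change -0.15, adjusted p = 0.13) and without Aucklandiae high replicate 2 (-0.15, 0.106).

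HSP90AB1, the most abundant of the 10, moved less in proportion than HSP90AA1 with wortmannin and high-dose Polygalae, though the difference was not tested. With high-dose Aucklandiae HSP90AB1 fell about as much as HSP90AA1. It stood at 2700, 2676 and 2662 CPM with wortmannin, at 2509, 2514 and 2532 CPM with high-dose Polygalae and at 2895, 2670 and 2877 CPM with high-dose Aucklandiae, against 3220, 3201 and 3198 CPM with the vehicle. Again no treated library overlapped the vehicle, and the 3 Polygalae libraries were the lowest. Its log2 fold changes were -0.26 ± 0.04 (adjusted p = 1.76e-07), -0.35 ± 0.04 (4.23e-10) and -0.19 ± 0.04 (7.82e-05) in that order of treatments. The ratio of HSP90AA1 to HSP90AB1 was 0.473 ± 0.0103 with wortmannin, 0.518 ± 0.00279 with high-dose Polygalae and 0.562 ± 0.0111 with high-dose Aucklandiae, against 0.564 ± 0.0301 with the vehicle (SD, n = 3). HSP90AA1 overlaps WDR20 on the opposite strand, and the strand setting of the counting is not given in the sources used here, so reads of the overlap cannot be told apart.

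Within the HSP70 family, the constitutive gene fell under wortmannin, while neither inducible gene passed the test. HSPA8 (chr11:123057489-123063230) encodes HSC70, the HSP70 of unstressed cells, which also uncoats clathrin vesicles. HSPA8 stood at 1047, 1012 and 1004 CPM with wortmannin, at 1096, 1156 and 1220 CPM with high-dose Polygalae and at 1091, 1136 and 1195 CPM with high-dose Aucklandiae, against 1390, 1351 and 1277 CPM with the vehicle. Every treated library lay below every vehicle library. The log2 fold changes were -0.39 ± 0.05 (adjusted p = 4.06e-09), -0.21 ± 0.05 (0.000745) and -0.23 ± 0.05 (0.000146). Without TMM scaling they were -0.31, -0.05 and -0.12. The HSPA8 locus also holds the small nucleolar RNA genes SNORD14C, SNORD14D and SNORD14E on the same strand.

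HSPA1A (chr6:31815464-31817946) and HSPA1B (chr6:31827735-31830255) encode the stress-inducible HSP70, and 67.3% of the 100-base stretches of HSPA1A and 72.7% of those of HSPA1B occur in another gene, mostly each other. The split of reads between the pair is therefore uncertain. HSPA1A stood at 152, 157 and 156 CPM with wortmannin, at 88.5, 113 and 115 CPM with high-dose Polygalae and at 99.4, 126 and 118 CPM with high-dose Aucklandiae, against 128, 132 and 142 CPM with the vehicle. Wortmannin libraries lay above all vehicle libraries and those of both extracts below them. The test gave 0.21 ± 0.09 for wortmannin (adjusted p = 0.0593), -0.35 ± 0.09 for high-dose Polygalae (0.00249) and -0.23 ± 0.09 for high-dose Aucklandiae (0.0424). HSPA1B stood at 235, 246 and 220 CPM with wortmannin, at 169, 172 and 194 CPM with high-dose Polygalae and at 168, 184 and 194 CPM with high-dose Aucklandiae, against 183, 217 and 217 CPM with the vehicle, and no adjusted p was under 0.05. HSPA1B passed with no filter on low counts for wortmannin (0.18, adjusted p = 0.0464) and high-dose Polygalae (-0.21, 0.0198), and in fits of the libraries of each comparison alone (0.0316 and 0.03). Summed before the fit, the pair gave 0.19 ± 0.10 for wortmannin (adjusted p = 0.138), -0.26 ± 0.10 for high-dose Polygalae (0.0566) and -0.20 ± 0.10 for high-dose Aucklandiae (0.147), so no call remained against the vehicle. The HSPA1A calls also rest on single libraries. Without vehicle replicate 3 the wortmannin value passed, at 0.25 (adjusted p = 0.0448), and without Polygalae high replicate 1 the Polygalae value did not, at -0.23 (0.0721). That with Aucklandiae was -0.14 (0.325) without Aucklandiae high replicate 1, -0.25 (0.0572) without its replicate 3, -0.24 (0.0578) without vehicle replicate 2 and -0.19 (0.144) without vehicle replicate 3.

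Set against HSPA8, which itself fell with wortmannin (-0.39), the inducible pair stood out under wortmannin. The pair summed did not pass against the vehicle in the edgeR fit (0.19 ± 0.10, adjusted p = 0.138), and the ratio was not tested. The sum of HSPA1A and HSPA1B per HSPA8 was 0.369, 0.398 and 0.375 in the wortmannin libraries, against 0.224, 0.258 and 0.281 in the vehicle libraries. With high-dose Polygalae it was 0.235, 0.246 and 0.253, and with high-dose Aucklandiae 0.245, 0.273 and 0.261, both inside the range of the vehicle. Wortmannin was then compared directly with both extracts, a comparison added after the data were seen. Against high-dose Polygalae, 2 of the 10 genes were higher and 4 lower with wortmannin, with 33.8% of all genes called (16.3% higher and 17.4% lower). Against high-dose Aucklandiae, 3 were higher and 6 lower, with 34.4% called (16.7% higher and 17.7% lower). All 6 calls against Polygalae passed in every alternative fit, and 6 of the 9 against Aucklandiae did. There HSPA8 and HSPA1B each lost the call in 2 fits and DNAJB1 in 1. The HSPA1A difference was 0.55 ± 0.09 on the log2 scale against Polygalae (adjusted p = 1.1e-06) and 0.44 ± 0.09 against Aucklandiae (6.36e-05). For the pair summed, these were 0.45 ± 0.10 (0.000303) and 0.39 ± 0.10 (0.00171). The groups of these comparisons belong to different code sets as well.

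**Figure D3:**
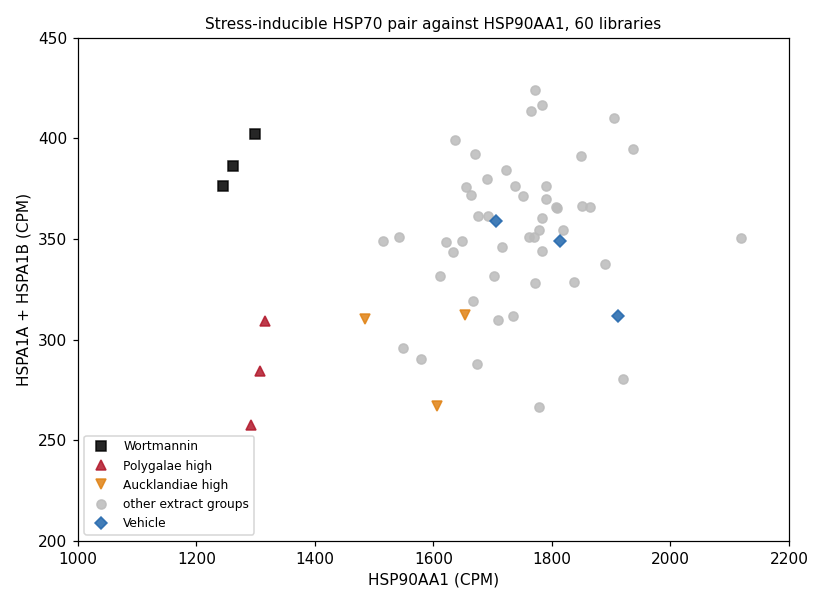
Summed CPM of HSPA1A and HSPA1B (y axis) against CPM of HSP90AA1 (x axis; neither starts at 0) in the 60 libraries, with each point a library. The wortmannin and high-dose Polygalae libraries have like HSP90AA1 levels, 1245 to 1299 and 1292 to 1316 CPM, but the HSP70 pair stands at 376 to 402 CPM with wortmannin and at 258 to 309 CPM with high-dose Polygalae, against 312 to 359 CPM with the vehicle.

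The partners of HSP70 were called under different treatments, and no difference between them was tested. HSPH1 (chr13:31134974-31162388) encodes an HSP110 protein that swaps the nucleotide on HSP70 and takes part in pulling apart protein clumps. It stood at 114, 109 and 105 CPM with wortmannin, against 145, 138 and 136 CPM with the vehicle, without overlap, a log2 fold change of -0.35 ± 0.05 (adjusted p = 4.72e-07). With high-dose Polygalae HSPH1 stood at 135, 135 and 137 CPM and with high-dose Aucklandiae at 131, 128 and 135 CPM, values of -0.04 ± 0.05 and -0.09 ± 0.05 that did not pass the test (adjusted p = 0.615 and 0.234). Wortmannin and high-dose Polygalae differed directly for HSPH1, by -0.31 ± 0.05 (adjusted p = 4.83e-06).

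DNAJB1 (chr19:14514770-14529770), the J-domain protein (HSP40) that brings HSP70 to its clients, had its highest group mean in the vehicle, 160 ± 3.48 CPM. It stood at 155, 154 and 148 CPM with wortmannin and at 136, 137 and 140 CPM with high-dose Aucklandiae, against 156, 163 and 161 CPM with the vehicle. The wortmannin value of -0.07 ± 0.04 did not pass (adjusted p = 0.196), and that of Aucklandiae was -0.22 ± 0.04 (6.32e-05). With high-dose Polygalae DNAJB1 ran from 144 to 155 CPM, below all vehicle libraries. That value of -0.10 did not pass (adjusted p = 0.0866), though DESeq2 called it (-0.11, 0.0407). DNAJB1 was also the one gene of the 10 called with high-dose Schisandrae, at 138, 140 and 139 CPM, a log2 fold change of -0.21 ± 0.04 (adjusted p = 0.000248), where 15.7% of all genes were called (7.25% lower). HSP90AA1 passed there too without vehicle replicate 3 (-0.21, 0.0322) or Schisandrae high replicate 1 (-0.21, 0.0397). All 19 fold changes of DNAJB1 against the vehicle were negative, and they share its 3 libraries. From high against low dose, which leaves the vehicle out, DNAJB1 was called for none of the 6 extracts. It overlaps TECR on the opposite strand.

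The HSP90 co-chaperones STIP1 and FKBP4 both fell with wortmannin. Under the extracts their calls were not the same, but no difference between the genes was tested. STIP1 (chr11:64185272-64204543), also called HOP, links HSP70 to HSP90. STIP1 stood at 172, 178 and 165 CPM with wortmannin, at 198, 196 and 210 CPM with high-dose Polygalae and at 209, 204 and 209 CPM with high-dose Aucklandiae, against 221, 224 and 227 CPM with the vehicle. All treated libraries lay below the vehicle. The log2 fold changes were -0.38 ± 0.04 (adjusted p = 1.75e-10), -0.16 ± 0.04 (0.00414) and -0.11 ± 0.04 (0.0333). The Polygalae value was 0.00257 without TMM scaling and lost its call with no filter on low counts (adjusted p = 0.137). The Aucklandiae call was lost without any of the 6 libraries, 3 of high-dose Aucklandiae and 3 of the vehicle, with adjusted p from 0.0595 to 0.124 and log2 fold changes from -0.12 to -0.10.

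FKBP4 (chr12:2794953-2805423) encodes FKBP52, an immunophilin that joins HSP90 in steroid receptor complexes. FKBP4 stood at 81.1, 77.7 and 78.9 CPM with wortmannin, against 96.2, 107 and 104 CPM with the vehicle, a log2 fold change of -0.37 ± 0.04 (adjusted p = 3.48e-10). The next lowest of the 20 group means after wortmannin, 79.2 CPM, was that of the vehicle itself, 103 ± 5.58 CPM. With high-dose Polygalae FKBP4 stood at 102, 103 and 107 CPM (0.02 ± 0.04, adjusted p = 0.775). High-dose Aucklandiae gave 112, 112 and 114 CPM, above all vehicle libraries, with 0.14 ± 0.04 (adjusted p = 0.00638), and medium-dose Aucklandiae gave 113, 115 and 112 CPM with 0.15 ± 0.04 (0.0214). Both Aucklandiae calls rest on vehicle replicate 1, the lowest for this gene: without it they were 0.10 (adjusted p = 0.123) and 0.11 (0.164). The medium-dose call was also lost without Aucklandiae medium replicate 2 (0.13, 0.0903) or replicate 3 (0.16, 0.0591). FKBP4 overlaps ITFG2-AS1 on the opposite strand.

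HSPD1 (chr2:197486581-197516737) encodes mitochondrial HSP60 and lies head to head with HSPE1, the gene of its lid protein HSP10. HSPD1 stood at 1233, 1251 and 1206 CPM with wortmannin and at 1298, 1326 and 1303 CPM with high-dose Polygalae, against 1551, 1470 and 1415 CPM with the vehicle. Neither treatment overlapped the vehicle. The log2 fold changes were -0.27 ± 0.05 (adjusted p = 1.27e-05) and -0.18 ± 0.05 (0.00483). The Polygalae value was -0.14 (0.08) without vehicle replicate 1, and -0.02 without TMM scaling. With Aucklandiae, HSPD1 stood at 1547, 1476 and 1486 CPM at the high dose (0.02 ± 0.05, adjusted p = 0.766) and at 1655, 1622 and 1756 CPM at the medium dose, where it rose by 0.18 ± 0.05 (0.0138). That call was lost without vehicle replicate 2 (0.18, 0.057), vehicle replicate 3 (0.15, 0.109) or Aucklandiae medium replicate 3 (0.15, 0.128). Medium-dose Aucklandiae had 5.52% of all genes called (3.05% higher). HSPD1 overlaps HSPE1 and MOB4 on the opposite strand.

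The high dose was then compared with the low dose of the same extract, which leaves out both the vehicle and the crossing of code sets. Polygalae lowered 6 of the 10 genes, with 3.93% of all genes called (2.7% lower). HSP90AA1 stood at 1292, 1307 and 1316 CPM at 450 µg/mL, against 1549, 1621 and 1648 CPM at 18 µg/mL, with a log2 fold change of -0.30 ± 0.06 (adjusted p = 0.000922). For HSP90AB1, 2509, 2514 and 2532 CPM at the high dose, against 2997, 3005 and 3139 CPM at the low dose, gave -0.28 ± 0.04 (4.38e-07). HSPD1 stood at 1298, 1326 and 1303 CPM at the high dose, against 1482, 1633 and 1568 CPM at the low dose, with -0.25 ± 0.05 (0.000264). These 3 calls passed in all 13 alternative fits. HSPA1A (-0.32 ± 0.09, adjusted p = 0.0205), STIP1 (-0.18 ± 0.04, 0.00385) and HSPA8 (-0.16 ± 0.05, 0.0401) each lost the call in 3 to 6 fits. With HSPA1A and HSPA1B summed, the value was -0.22 ± 0.10 (adjusted p = 0.265), so the HSPA1A call did not hold for the pair. The libraries whose removal lost a call of these genes were Polygalae high replicate 1 (HSPA1A -0.20, 0.289, and HSPA8 -0.12, 0.279) and Polygalae high replicate 2 (HSPA8 -0.16, 0.129, and STIP1 -0.16, 0.0505). The others were Polygalae low replicate 2 (HSPA1A -0.28, 0.145, and HSPA8 -0.13, 0.237) and Polygalae low replicate 3 (HSPA8 -0.15, 0.128).

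The steps between doses were uneven. Against the vehicle, Polygalae called 1 of the 10 genes at the low dose, HSP90AA1 at -0.17 ± 0.06 (adjusted p = 0.0427; 15.6% of all genes called, 7.01% lower), and none at the medium dose (11.7% called), where 3 had an unadjusted p under 0.05 and DESeq2 called 2. The low-dose call was lost without vehicle replicate 1 (-0.14, 0.261) or 2 (-0.18, 0.0789) and without Polygalae low replicate 1 (-0.15, 0.14) or 2 (-0.18, 0.109). HSP90AA1 averaged 1606 ± 51.0, 1723 ± 82.8 and 1305 ± 12.03 CPM at 18, 90 and 450 µg/mL Polygalae (SD, n = 3).

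Aucklandiae lowered 3 genes at 500 against 20 µg/mL, with 14.9% of all genes called (7.14% lower). HSP90AB1 stood at 2895, 2670 and 2877 CPM at the high dose, against 3246, 3183 and 3216 CPM at the low dose, a log2 fold change of -0.19 ± 0.04 (adjusted p = 9.31e-05). HSPA8 (-0.16 ± 0.05, 0.0139) and STIP1 (-0.15 ± 0.04, 0.00676) were the other two. In a fit of these 6 libraries alone none of the 3 passed (adjusted p = 0.109, 0.135 and 0.0663) at log2 fold changes of -0.19, -0.16 and -0.15. HSPA8 was also lost without Aucklandiae high replicate 1 (-0.13, 0.108) and Aucklandiae low replicate 3 (-0.14, 0.0679). Without Aucklandiae low replicate 1, 5 genes were called, HSPA1A (-0.30, 0.0202) and HSPA1B (-0.35, 0.0423) among them.

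**Figure D4:**
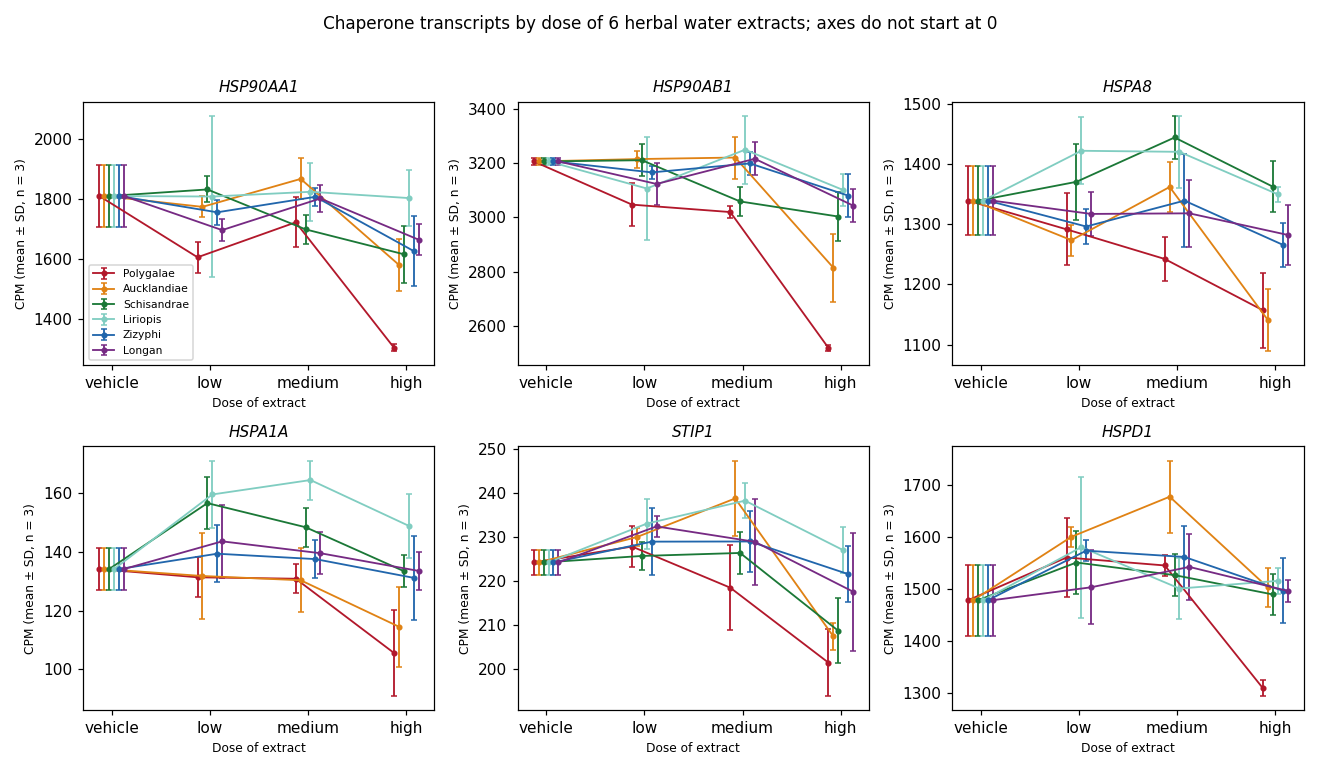
Group means of CPM ± SD (y axes, n = 3, not starting at 0) of 6 of the genes with the vehicle and at the low, medium and high dose of each extract (x axis); lines join the groups of an extract. HSP90AB1 stands at 2518 CPM at the high dose of Polygalae and 2814 CPM at that of Aucklandiae, against 3206 CPM with the vehicle, while the high doses of the other extracts lie between 3003 and 3101 CPM.

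Schisandrae, given at 500 against 20 µg/mL, lowered HSP90AA1 (-0.18 ± 0.06, adjusted p = 0.0456), with 9.99% of all genes called (4.8% lower). HSP90AA1 stood at 1702, 1633 and 1515 CPM at the high dose, against 1849, 1864 and 1783 CPM at the low dose. The call was lost when any of 5 of the 6 libraries was left out, with adjusted p from 0.0678 (without Schisandrae low replicate 3) to 0.307 (without Schisandrae high replicate 3); the others were Schisandrae high replicate 2 (0.112) and Schisandrae low replicates 1 (0.152) and 2 (0.161). Liriopis, Zizyphi and Longan called none of the 10, with 0%, 0.351% and 0.00605% of all genes called and 0, 0 and 2 of the 10 at an unadjusted p under 0.05. The high-against-low effect was also compared between the extracts of a code set. None of the 10 genes passed between Polygalae and Aucklandiae (6.82% of all genes called), Schisandrae and Liriopis (4.97%) or Zizyphi and Longan (0%), with 1, 1 and 0 at an unadjusted p under 0.05. For HSP90AA1 the Polygalae effect minus that of Aucklandiae was -0.13 (95% interval -0.31 to 0.04). The largest in size for that pair was HSPD1, -0.16 ± 0.07 (adjusted p = 0.146). Between Schisandrae and Liriopis, HSP90AA1 stood at -0.18 (adjusted p = 0.303), and at -0.30 (0.00728) without Liriopis low replicate 1, which had 2118 CPM, the highest of the 60 libraries, and also the lowest GC slope of the 60, -1.73.

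Against the vehicle, the 9 groups of Liriopis, Zizyphi and Longan called none of the 10 genes. At the low, medium and high dose, 0.0303%, 0.0303% and 0.0484% of all genes were called for Liriopis, 2.09%, 0.702% and 4.42% for Zizyphi, and 0.581%, 0.0666% and 1.76% for Longan. Between 0 and 4 of the 10 genes per group had an unadjusted p under 0.05. The 27 libraries ran from 1542 to 2118 CPM for HSP90AA1 (median 1765), from 2985 to 3393 CPM for HSP90AB1 (3156) and from 1236 to 1488 CPM for HSPA8 (1329). Low-dose Aucklandiae and low- and medium-dose Schisandrae also called none, with 4.45%, 0.0727% and 2.98% of all genes called and 3, 2 and 2 of the 10 at an unadjusted p under 0.05. Without Aucklandiae low replicate 1, DNAJB1 passed at the low dose (-0.16, adjusted p = 0.0446). The highest HSPA1A levels of the series were found with medium-dose Liriopis, at 158, 171 and 165 CPM, all above the vehicle's 128 to 142 CPM. The log2 fold change of 0.30 ± 0.09 had an adjusted p of 0.154, and 0.00158 with no filter on low counts. With HSPA1A and HSPA1B summed it was 0.27 ± 0.10 (adjusted p = 0.265).

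Other genes of the protein folding network were counted by lists of known members. With wortmannin, 32.6% of all genes were called in either direction, and 16.2% fell. Of 12 HSP90 co-chaperones 10 fell and none rose, with a median log2 fold change of -0.29. Examples are CACYBP (-0.56 ± 0.08), CHORDC1 (-0.53 ± 0.06) and the immunophilin FKBP5 (-0.42 ± 0.04). Of the 14 subunits of TRiC, the cytosolic ring that folds actin and tubulin, and of prefoldin, which delivers clients to it, 11 fell (median -0.32), among them CCT5 (-0.45 ± 0.04) and CCT2 (-0.41 ± 0.05). J-domain partners fell for 5 of 9, led by DNAJC2 of the ribosome-associated complex (-0.76 ± 0.08). Mitochondrial chaperones and proteases fell for 6 of 12, including HSPA9, the HSP70 of the matrix (-0.23 ± 0.05). BAG and other HSP70 co-chaperones fell for 5 of 10 and rose for 1, and endoplasmic reticulum chaperones fell for 8 of 14. None of the 4 genes for heat shock factors and their binding protein was called, and of 8 other HSP70, HSP110 and small heat shock genes tested 1 fell, HSPA14. Of the hepatocyte markers, 5 of 10 rose with wortmannin.

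With high-dose Polygalae, 20.1% of all genes were called in either direction, and 9.94% fell. Endoplasmic reticulum chaperones fell for 12 of 14 (median -0.51). They were led by HSPA5, the HSP70 of that compartment, also called BiP (-0.72 ± 0.04), PDIA4, a disulfide isomerase (-0.68 ± 0.04), and HYOU1, the HSP110 of the compartment (-0.66 ± 0.04). Against the low dose of Polygalae, where 2.7% of all genes were lower, 10 of the 14 fell, with HSPA5 at -0.48 ± 0.04. HSP90 co-chaperones fell for 1 of 12, the kinase adaptor CDC37 (-0.27 ± 0.07), and TRiC and prefoldin subunits for 2 of 14. BAG and other HSP70 co-chaperones fell for 5 of 10 and rose for 2. High-dose Aucklandiae, with 12.5% of all genes lower and 13.6% higher, lowered 7 of 14 endoplasmic reticulum chaperones, such as CALR (-0.50 ± 0.06). It lowered none of the 14 TRiC and prefoldin subunits. Other lists held genes called in both directions. Among BAG and other HSP70 co-chaperones, BAG4 (-0.41 ± 0.07) and ST13 (-0.22 ± 0.06) fell and BAG2 rose (0.37 ± 0.07). HSF1 rose by 0.13 ± 0.05 (adjusted p = 0.0327, 94.5 CPM, against 86.4 CPM with the vehicle), and HSF4 by 0.89 ± 0.30 (0.0215), at 1.79 CPM. HSF1 also rose with high-dose Schisandrae, by 0.15 ± 0.05 (0.0156, 96.2 CPM), where DNAJB1 was the only chaperone gene followed here that was called. Hepatocyte markers fell for 4 of 10 with high-dose Polygalae and 6 of 10 with high-dose Aucklandiae. Their part in the results on chaperones was not tested, nor was any difference between lists.

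**Figure D5:**
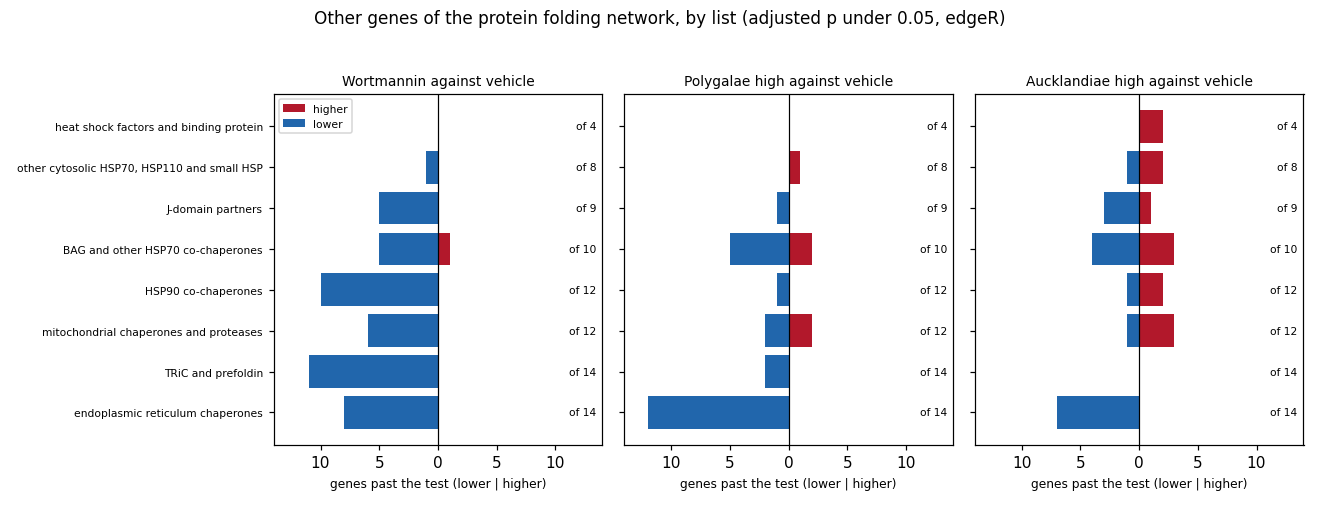
Number of genes past the test (x axis, lower to the left and higher to the right of 0; adjusted p of 0.05, edgeR) in 8 lists of the protein folding network (y axis), against the vehicle; the number at the right of each bar is how many genes of the list were tested. With wortmannin 10 of 12 HSP90 co-chaperones and 11 of 14 TRiC and prefoldin genes were lower, and with high-dose Polygalae 1 and 2, while endoplasmic reticulum chaperones were lower for 8 and 12 of 14. Of all tested genes, 16.2% were lower with wortmannin and 9.94% with high-dose Polygalae.

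How the 10 genes varied together was described over the 20 group means on a log2(CPM + 1) scale. These points share the library scaling. HSP90AA1 and HSP90AB1 ran together (r = 0.938), as did HSPA1A and HSPA1B (r = 0.936), the pair that shares reads. Between HSPA1A and FKBP4 the correlation was -0.258. Over all 45 pairs the median was 0.501 across group means, with 39 positive, and 0.149 across the 60 libraries after group means were taken off, with 29 positive. Correlation with the mean of the 10 genes was 0.943 for HSP90AA1, 0.921 for both HSP90AB1 and HSPA8, and 0.293 for DNAJB1. Each of the 10 is itself part of that mean, so these values are not on a par with those of genes outside it. Among all other tested genes with a mean of at least 5 CPM, the closest to that mean pattern over the 20 groups were MTHFD1 (r = 0.961), SF3B3 (0.948), KIF4A (0.945), CKAP5 (0.942) and HNRNPM (0.939). The most opposite were FNDC4 (-0.878), CHMP1B (-0.873), ENSG00000270504 (-0.873), CTC1 (-0.865) and SLC43A1 (-0.86). CKAP5, a microtubule polymerase, stood at 180 CPM with wortmannin and 254 CPM with the vehicle.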

How the data were processed

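The authors deposited a table of expected counts, that is read numbers per gene as a model estimates them, for 60 libraries. The submitters' processing notes list STAR 2.7.3a, RSEM 1.3.3, FastQC 0.11.9 and Trim Galore 0.6.5 and the build hg38 with no role or order. Per the labels' protocols, a directional mRNA kit was used on RNA of integrity above 7, and pairs of 100 bp were read. No annotation or strand setting is given in the sources used here.

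Expected counts were rounded and filtered with filterByExpr by group, which left 16517 of 60675 genes (the rest held 0.0534% of counts); 56558 IDs matched a symbol. Libraries were scaled with TMM factors (0.920 to 1.08). An edgeR 4.0.16 quasi-likelihood model (R 4.3.3) took all 60 libraries, with 1 coefficient per group. Contrasts were 2-sided, and p-values were adjusted by Benjamini and Hochberg's method across the 16517 genes and called under 0.05. Log2 fold changes have standard errors from the fit, and 95% intervals use 40 residual degrees of freedom. The labels do not say that replicates are separate cultures, so p-values reflect only how these samples vary, possibly for technical reasons.

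All 10 genes are named. Of other lists, at most the 3 genes with the smallest p among those past the threshold are named per contrast, with likeness limited to 5 genes each way; HSF1 follows that rule. The genes and lists were chosen with earlier results of these data known. The direct comparisons of wortmannin with extracts were added after the data were seen. Gene coordinates are GENCODE on GRCh38; promoter sequences are RefSeq's.

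Alternatives were RLE scaling, no filter, a replicate block, DESeq2 1.42.0, the libraries of a comparison alone, leaving out the 4 libraries of lowest GC slope, summing HSPA1A with HSPA1B and pseudogene copies (which held at most 0.482% of reads) with their parents, and leaving out each library. The labels say nothing of what a replicate number shares. Deviations of same-numbered libraries correlated above 0.1 in all 3 pairs for high- against low-dose Schisandrae (r = 0.215, 0.102 and 0.185) and Zizyphi (0.211, 0.424 and 0.112), 2 of the 25 comparisons checked, and not in the others.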

Additional observations from a re-analysis of the deposited data

How the results depend on the processing

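Directions of the called values held in every refit, though 1 turned without scaling (STIP1 with high-dose Polygalae), and calls near the threshold moved. With no filter on low counts, low-dose Polygalae and medium-dose Aucklandiae each called 0 of the 10 genes (1 and 2 in the reported fit), low-dose Liriopis 1 and medium-dose Liriopis 2. DESeq2 called 2 for medium-dose Polygalae, 2 for low-dose Aucklandiae, 4 for high-dose Schisandrae against the vehicle and 3 against the low dose. RLE scaling called 0 for high- against low-dose Schisandrae. Without the 4 libraries of low GC slope, low-dose Polygalae, medium-dose Aucklandiae and high- against low-dose Schisandrae called 0 and the difference between Schisandrae and Liriopis 1. With the libraries of the comparison alone, low-dose Polygalae and medium-dose Aucklandiae called 0, high- against low-dose Polygalae 3 and Aucklandiae 0. The cause of these changes was not tested.

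With the replicate number as a block, 8 genes were called for wortmannin (HSPA1A at adjusted p = 0.0399), 2 for high-dose Schisandrae against the vehicle and 4 for high- against low-dose Aucklandiae; 296 of 300 gene-level results kept their side of the threshold and 4 passed it. Leaving out 1 library at a time gave 7 to 8 calls for wortmannin, 0 to 1 for low-dose, 0 for medium-dose and 5 to 6 for high-dose Polygalae, 0 to 1, 0 to 2 and 4 to 5 for the Aucklandiae doses, and 1 to 2 for high-dose Schisandrae. High against low dose gave 4 to 6 for Polygalae, 2 to 5 for Aucklandiae and 0 to 1 for Schisandrae, the difference between Schisandrae and Liriopis 0 to 1, wortmannin against Polygalae 6 and against Aucklandiae 8 to 10. With 2 libraries left in a group, the pooled spread of all groups was used. HSPA1A passed for wortmannin with the libraries of the comparison alone (adjusted p = 0.00308), with no filter (0.0187) and without vehicle replicate 3 (0.0448). Without scaling, 1 of 49 called values changed sign (STIP1 with high-dose Polygalae), and 44 of 200 group means moved by more than their SD.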
